A study of Mus musculus with 48 samples.

Results

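Gpnmb-high lipid-associated macrophages are macrophages of GL261 mouse glioma that hold much RNA of Gpnmb, the gene of a glycoprotein of lysosomal and phagosomal membranes. They were picked cell by cell in droplet single-cell RNA sequencing, from RNA levels alone. A cell with at least 500 genes detected was a member when it had at least 5 UMIs (unique molecular identifiers, 1 per captured RNA molecule) of Lyz2, the lysozyme gene of myeloid cells, and at least 2 UMIs of Gpnmb that made up at least 10 per 10,000 of its UMIs. Cells were left out when Cst7 (cystatin F) reached 10 per 10,000, or Nos2 and Inhba together passed 1 UMI. Any UMI of the microglial genes P2ry12 and Tmem119 or of the T-cell genes Cd3e, Cd3d and Cd3g also left a cell out, as did more than 1 UMI of the cell-cycle genes Mki67 and Top2a. The rule was met by 294 of 14896 cells: 72 of 9172 in a table of mixed tumor cells and 222 of 5724 in a table of CD11b+ cells. Gpnmb and the other genes of the rule chose the cells, so their levels are given as description, and so are those of the label genes Fabp5, Spp1 and Lgals3.

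Macrophages that clear dying cells, myelin or lipoproteins take in large amounts of fatty acids and cholesterol. They break the cargo down in acid lysosomes, store part of it in droplets and export cholesterol on apolipoprotein E. Macrophages that carry this load in fat tissue, arterial plaques and injured brain share a set of genes that includes Trem2, a receptor for lipids and lipoproteins, along with Gpnmb, Fabp5, Spp1 and Lgals3.

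P-selectin, encoded by Selp, is an adhesion molecule of endothelium and platelets that binds PSGL-1 (gene Selplg) on myeloid cells. The study lowered it in GL261 glioma cells with shRNA (shSELP) and used a negative control shRNA (shNC). The cells were implanted in the brains of C57BL/6 mice 6 weeks old, so that the knockdown was in tumor cells and host cells kept the gene. Brains of 3 mice were pooled per group.

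The mix held CD11b+ cells, other CD45+ cells and cancer cells in equal amounts from day 16 after implantation, in 2 shNC and 2 shSELP libraries. The CD11b+ table held bead-selected CD11b+ cells from day 21, in 1 shNC and 1 shSELP library, so it has no replicates and no test was run on its response to shSELP. Of the entries of the CD11b+ shSELP library, 7 carry a description line that names the negative control, while their titles and genotype name the knockdown, which was followed. Values of 4 libraries are given in the order shNC 1, shNC 2, shSELP 1, shSELP 2, and values of the CD11b+ libraries in the order shNC, shSELP. The days are those of the labels, while the study's methods give a single, different day for the mice of the single-cell experiments. Total depth was 22945972, 22626413, 17398121 and 25589350 UMIs in the mix and 12628177 and 11445676 UMIs in the CD11b+ libraries. It is not stated whether the 2 libraries of each group were made from different pools of brains, and the p-values measure spread between libraries only.

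Selp was rare in every library: 17, 25, 21 and 21 UMIs over all cells of the mix and 4 and 4 UMIs in the CD11b+ libraries, with 0 in Gpnmb-high macrophages (chr1:164115264-164150026, mm10). No test was run on counts this small.

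The first question was what the chosen cells are and how far apart they stand from other macrophages. A state named by a few genes needs a check of its other markers, since free RNA, doublets and monocytes on their way to macrophages can all carry some Gpnmb RNA. In the mix the rule left 3681 cells with enough Lyz2, 323 of them with enough Gpnmb, and 72 after the other conditions. Members per library numbered 11, 34, 11 and 16 in the mix and 73 and 149 in the CD11b+ table. Their summed RNA came to 80039, 334683, 107839 and 207432 UMIs in the mix, and their median depth was 5023, 9265.5, 7335 and 12100 UMIs per cell. Depth was lower in the CD11b+ libraries, at medians of 4485 and 3416 UMIs, with 335927 and 557814 UMIs summed. In such sums a count of 3 UMIs, the limit that a count of 0 allows, stood at 37.5, 8.96, 27.8 and 14.5 CPM in the mix. All levels are CPM: UMIs of a gene were summed over the cells of a class in a library and scaled to that class's total UMIs.

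Gpnmb was 10.2 per 10,000 in the member nearest the threshold in the mix, 22.9 at the median and 74.4 at most. Outside the rule, among macrophages that met every other condition, the highest value was 9.70, and 590 of 720 cells (81.9%) had no Gpnmb UMI. In the CD11b+ table the lowest member had 10.1, the median 20.3 and the highest 100.3, against 9.96 in the highest cell outside, and 1605 of 1876 (85.6%) outside had none. The threshold crossed a thin stretch of values without a gap: 31 members of the mix lay between 10 and 20 per 10,000, and 24 cells outside had 5 or more. Those 720 and 1876 cells are called Gpnmb-low macrophages here.

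Summed over members, Gpnmb (chr6:49036546-49070929) was at 1974, 3436, 2179 and 2343 CPM in the mix and 2304 and 2599 in the CD11b+ table, against 45.6, 65.2, 25.9 and 37.4 and 75.8 and 78.4 in Gpnmb-low macrophages. The label genes followed it. Fabp5, a carrier of fatty acids (chr3:10012548-10016607), stood at 6709, 6875, 5499 and 4614 in Gpnmb-high macrophages of the mix and at 328, 327, 193 and 249 in Gpnmb-low ones. Spp1, which encodes the secreted adhesion protein osteopontin (chr5:104435118-104441050), was the least even of them, at 1487, 4499.8, 751 and 8543 against 438, 314, 80.8 and 57.7. Lgals3, a galectin that binds damaged lysosomes (chr14:47367751-47386160), was at 4385, 5623, 3932 and 3900.1 against 1283, 1834, 1534 and 1595. Every mix library of members was above every one of Gpnmb-low macrophages for each of these genes. A Fabp5 UMI was found in 95.8% of members and 37.8% of Gpnmb-low macrophages, an Spp1 UMI in 56.9% and 23.1%, and an Lgals3 UMI in 98.6% and 93.3%. The median member had 43.0 Fabp5 and 46.4 Lgals3 per 10,000 but only 3.37 Spp1, so the label described fewer cells by Spp1 than by the others. CD11b+ members had Fabp5 at 5751 and 5265, Spp1 at 4159 and 3329 and Lgals3 at 5224 and 4157.

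Marker lists were read next, some of whose genes were also in the rule: Gpnmb among the label genes, Lyz2 as the top gene of the macrophage list, and Cd3e, Cd3d and Cd3g, which were at 0 by the rule. The 4 label genes summed to 14555, 20434, 12361 and 19399 in members of the mix, and 11 genes of lipid-associated macrophages to 49901, 54493, 52291 and 62242, against 20171, 12930, 17584 and 12888 in Gpnmb-low macrophages. Apoe alone made up 37232, 37812, 34579 and 44945 of the sums of members, so these sums mostly follow Apoe. Of the same list, Lpl had no UMI in members of shNC 1 and shSELP 1, and Lipa had none in shNC 1. All 9 macrophage markers had UMIs, with sums of 27387, 30856, 26382 and 36566. Of 9 microglial markers 6 had no UMI in members of the mix, 2 of them by the rule, and the list summed to 499.8, 935, 872 and 1316. Markers of monocytes (7 genes) were lower than in Gpnmb-low macrophages, at 1774, 1709, 992 and 1200.4 against 3357, 4816, 4702 and 5120. Dendritic-cell markers (7 genes) summed to 24.99, 14.9, 0 and 14.5, against 155, 168, 261 and 129 in Gpnmb-low macrophages. In members neutrophil markers (6 genes) came to 149.9, 191, 92.7 and 116, T and NK markers (8 genes) to 0, 8.96, 0 and 9.64, and B-cell markers (4 genes) to 0, 2.99, 9.27 and 4.82. Oligodendrocyte genes (6) were at 87.5, 86.6, 92.7 and 43.4, endothelial genes (5) at 125, 123, 64.9 and 116, and the 5 erythrocyte genes at 0. Tumor genes (8) were at 35.9, 27.8 and 48.2 in 3 libraries and at 1087 in shNC 1, where 1 cell of 16836 UMIs held 46 UMIs of the imprinted RNA H19.

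Free RNA was read from T cells, picked by at least 2 CD3 UMIs and at most 1 Lyz2 UMI, which should not express Gpnmb. No T cell of 424, 440, 405 and 412 in the mix met the Gpnmb condition. A Gpnmb UMI was seen in 6.84, 11.6, 4.20 and 10.7% of them, at median depths of 5560, 5504, 4982 and 7286.5 UMIs, and in 16.1, 23.7, 10.3 and 20.6% of Gpnmb-low macrophages, at 7690.5, 7190, 6083.5 and 8672 UMIs. Trem2 was in 2.12, 2.73, 3.21 and 2.67% of T cells, while Fabp5 was in 38.4, 35.5, 28.4 and 34.0%, a share like that of Gpnmb-low macrophages. Ctsd and Apoe were in 71.5 to 82.3% and 38.4 to 63.3% of T cells, so for these abundant genes levels were compared, not shares of cells. T cells can make Ctsd and Fabp5 RNA themselves, and how much of it was free was not tested. Barcodes shared between libraries numbered 5 and 3 within the tables, 1 of them a member's, and 12 between tables, none a member's.

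Gpnmb-high and Gpnmb-low macrophages of the same tumors were compared to learn which programs go with Gpnmb. A macrophage loaded with lipid needs receptors to take it in, acid hydrolases to digest it and transporters to send it out, while a cell newly arrived from blood still carries monocyte genes. Both states sit in the same library, so the comparison was made within libraries. It covered 11, 34, 11 and 16 members against 218, 215, 146 and 141 Gpnmb-low macrophages. Of 6364 genes tested with edgeR (quasi-likelihood F test, Benjamini-Hochberg adjusted p below 0.05), 709 differed (11.1%): 284 were higher (4.46%) and 425 lower (6.68%) in members. DESeq2 called 433 on the same sums. Members were deeper than Gpnmb-low cells in 3 libraries and shallower in shNC 1, and after every cell was thinned to 2000 UMIs 259 of 2895 genes were called.

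Lysosomal proteases were among the genes that rose most. Ctsd, the aspartic protease cathepsin D (chr7:142375911-142388038), was at 4235, 5169, 6927 and 7029 in members and 773, 568, 819 and 567 in Gpnmb-low macrophages, a log2 difference of 3.10 ± 0.19 (SE; adjusted p 2.71e-12, higher in 4 of 4 libraries). Ctsb, a cysteine protease (chr14:63122462-63145923), was at 5385, 7179.9, 6955 and 6296 against 1722, 1434, 1344 and 1263 (log2 2.18 ± 0.17, adjusted p 3.36e-10, 4 of 4). Cd63, a tetraspanin of late endosomes (chr10:128900989-128912822), rose from 458, 318, 291 and 225 to 1387, 1700.1, 1845 and 1239 (log2 2.31 ± 0.18, adjusted p 7.37e-10, 4 of 4). For all 3 genes the lowest library of members was above the highest library of Gpnmb-low macrophages. Pld3, a lysosomal exonuclease (chr7:27532000-27553218), rose by log2 2.76 ± 0.23 and Ctsk, the collagen-degrading cathepsin K of osteoclasts (chr3:95499256-95509362), by 5.16 ± 0.45, both in 4 of 4 libraries. Ctsk rested on 7, 46, 6 and 16 UMIs in members, and 1 cell held 4 of the 6 and 1 cell 10 of the 16. CD11b+ members had Ctsd at 6091 and 6558 against 1093 and 1189 in Gpnmb-low cells, ratios of 5.57 (5.28 to 5.88) and 5.52 (5.27 to 5.77), with exact 95% limits that cover counting error only.

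Lysosomal genes were higher as lists too. Of 48 genes tested in the lists of cathepsins, lysosomal lipid breakdown and lysosome membrane with proton pump, 23 were higher and 2 lower, 45 had a log2 difference above 0, and the median was 0.66 against -0.01 over all 6364 genes. Among 10 cathepsins 8 were higher and 1 lower (median 1.14): Ctsa, Ctsl, Ctss, Ctsz and Ctsh rose along with Ctsb, Ctsd and Ctsk, by 1.18, 1.19, 1.10, 0.89 and 0.59, and Ctsc, which activates granule proteases, fell by 0.58. Of 15 genes that digest lipids in the lysosome 9 were higher and 1 lower (median 0.72), among them the glycolipid hydrolases Hexa (1.64 ± 0.18) and Gla (1.24 ± 0.22) and the cholesterol exporter Npc1 (0.93 ± 0.31). Lipa, the acid lipase that frees cholesterol from its esters, was not called (log2 0.47 ± 0.33, adjusted p 0.436). Of 23 membrane and pump genes 6 were higher and 0 lower (median 0.51), with Lamp1, the main membrane glycoprotein, at 1.23 ± 0.17 and the pump subunit Atp6v1c1 at 1.54 ± 0.22. The factors of the MiT/TFE family, which switch lysosomal genes on, gave 0 of 4 called (median 0.45).

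Lipid genes rose in part. Apoe, the apolipoprotein that carries cholesterol out of macrophages (chr7:19696109-19699188), reached 37232, 37812, 34579 and 44945 against 16134, 9784, 14174 and 9952 (log2 1.67 ± 0.17, adjusted p 5.79e-08, 4 of 4 libraries). Trem2 (chr17:48346401-48354147) was at 737, 1129, 927 and 1036 against 303, 227, 209 and 178 (log2 2.12 ± 0.19, adjusted p 8.70e-09, 4 of 4), and again the groups of libraries did not overlap. The list of cholesterol efflux and LXR targets gave 6 higher and 0 lower of 11 tested, median log2 1.22, with the exporters Abca1 (0.91 ± 0.21) and Abcg1 (1.23 ± 0.25), the phospholipid carrier Pltp (1.39 ± 0.27) and the receptor gene Nr1h3 (1.23 ± 0.30) among the higher ones. Lipid uptake and transport gave 6 higher and 1 lower of 14 tested, median log2 0.75, with Fabp3 (4.05 ± 0.60) and Fabp4 (2.30 ± 0.48), both carriers of fatty acids, and the lipoprotein receptor Lrp1 (1.25 ± 0.19) among the higher ones. Fabp3 rested on 5, 13, 11 and 3 UMIs in members, and 10 of the 11 in shSELP 1 were in 1 cell. The scavenger receptor Cd36 was not called (log2 0.09 ± 0.37, adjusted p 0.925). Droplet genes gave 3 higher and 0 lower of 9 tested, median log2 0.08: the coat genes Plin2 (0.86 ± 0.19) and Plin3 (1.05 ± 0.33) and the lipase inhibitor Hilpda (1.08 ± 0.24) rose. Apoc1, a small apolipoprotein of the efflux list (chr7:19689481-19692660), was called at log2 3.01 ± 0.46 (adjusted p 4.09e-05, 4 of 4), with a UMI in 18.1% of members and 6.11% of Gpnmb-low macrophages, but stood at -0.03 (not called) once the 7 cells with most Apoc1 or Saa3 UMIs were left out, a fall that this choice of cells builds in. Fatty acid oxidation gave 0 higher and 0 lower of 11 tested, median log2 -0.19, and sterol and fatty acid synthesis gave 0 higher and 0 lower of 8 tested, median log2 -0.62. Over all 6 libraries 4 of 10 synthesis genes were lower (median -0.66), and their median log2 ratio was -1.12 and -0.52 in the CD11b+ libraries.

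Genes outside the lipid and lysosomal lists were higher too. Syngr1, a vesicle membrane protein (chr15:80091334-80119501), was at 199.9, 478, 584 and 487 in members and 31.9, 32.9, 39.4 and 17.1 in Gpnmb-low macrophages (log2 3.87 ± 0.24, adjusted p 6.84e-12, 4 of 4), with a UMI in 75.0% and 11.8% of cells. Il18bp, a secreted trap for interleukin 18 (chr7:102014885-102018690), rose from 218, 210.4, 123 and 184 to 949.5, 809.7, 964 and 670.1 (log2 2.22 ± 0.18, adjusted p 1.01e-09, 4 of 4). Timp2, an inhibitor of matrix proteases (chr11:118301069-118355740), rose by log2 3.07 ± 0.26 (adjusted p 1.72e-09, 4 of 4). Gdf15, a stress cytokine (chr8:70629393-70632456), was at 537, 111, 27.8 and 72.3 against 19.2, 24.1, 19.7 and 10.9 (log2 2.98 ± 0.38, adjusted p 3.55e-06, 4 of 4). In shSELP 1 its value of 27.8 rested on 3 UMIs. In shNC 1, 41 of its 43 UMIs were in 1 cell, and its level was 32.5 without that cell. Igf1 (2.51 ± 0.48) and Csf1 (1.74 ± 0.48), growth factors of neurons and of macrophages, were called higher on few UMIs. Members held 1, 19, 5 and 6 UMIs of Igf1 and 1, 11, 3 and 11 of Csf1. In shSELP 2, 7 of the 11 Csf1 UMIs were in 1 cell.

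Genes of several kinds were lower in members, some of them genes of monocytes. Ccr2, the chemokine receptor by which monocytes leave the blood (chr9:124101950-124113557), was at 62.5, 8.96, 9.27 and 24.1 in members against 190.0, 179.7, 143 and 162 (log2 -3.05 ± 0.34, adjusted p 3.36e-07, lower in 4 of 4), with a UMI in 9.72% against 48.3% of cells. Plac8, a gene of young monocytes, fell from 2104, 2635, 2532 and 3210.1 to 787, 215, 232 and 116 (log2 -3.26 ± 0.30, 4 of 4), and S100a4, a calcium-binding protein of motile cells, from 295, 375, 413 and 569 to 62.5, 11.95, 18.5 and 9.64 (log2 -4.45 ± 0.33, 4 of 4). Il1r2, a decoy receptor for interleukin 1, had 0, 4, 0 and 1 UMIs in members, with 387, 280.0, 337 and 356 CPM in Gpnmb-low macrophages, and the membrane protein gene Ifitm1 had 0, 2, 1 and 0 UMIs, with 460.2, 329, 740.1 and 679 CPM there. The cell-cycle gene Ccnd2 fell by log2 3.37, to 1, 6, 1 and 0 UMIs, and the ion channel gene Tmem176b by log2 2.77, to 3, 7, 3 and 1 UMIs. These 4 genes were called and lower in 4 of 4 libraries. Ifitm6, an interferon-induced membrane protein, and Plet1, a surface protein of epithelial and myeloid cells, had 0 UMIs in members of the mix, which pooled over the 4 libraries puts them at least 35.0-fold and 24.7-fold lower. Ngp also had 0 UMIs in members, and most of its RNA in Gpnmb-low macrophages was in shSELP 1. DESeq2 did not call Ngp (log2 -5.98, adjusted p 0.198). Ngp is a granule gene of neutrophils, and its level in Gpnmb-low macrophages was 153, 0.548, 991 and 68.6; in shSELP 1 neutrophil markers summed to 17208 there, against 1636, 61.4 and 1145 in the other libraries. Mrc1, a mannose receptor, had 0, 1, 0 and 0 UMIs in members and 26.9, 37.3, 81.9 and 46.7 CPM in Gpnmb-low macrophages.

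MHC class II genes were lower, while cytokine genes moved in both directions. The list of MHC class II genes gave 0 higher and 7 lower of 10 tested, median log2 -0.74, and H2-Eb1, a chain of the class II molecule, was at 3598, 2704, 3023 and 4642 against 8595, 6188, 5779 and 7021 (log2 -0.98 ± 0.16, adjusted p 6.97e-05, lower in 4 of 4). Dendritic-cell markers were lower in members too, and how much of the class II difference goes with such cells was not tested. Il1b, the cytokine interleukin 1 beta, was at 2062, 4356, 6213 and 2815 against 8837, 7758, 7191 and 8172 (log2 -1.14 ± 0.21, adjusted p 3.25e-04, 4 of 4). Its natural antagonist Il1rn (-1.21 ± 0.19) was lower with it. Cytokines and chemokines gave 2 higher and 6 lower of 22 tested, median log2 -0.26 and 8 above 0, with Ccl7 (1.14 ± 0.20), which draws monocytes, on the higher side. Interferon-stimulated genes gave 0 higher and 8 lower of 21 tested, median log2 -0.47, led by the T-cell attractant Cxcl10 (-1.67 ± 0.27). Immune checkpoint and suppression genes gave 1 higher and 4 lower of 12 tested, median log2 -0.23, with Pdcd1lg2, the gene of the PD-1 ligand PD-L2, at -2.91 ± 0.80. Selplg, the P-selectin ligand (chr5:113818536-113832644), was at 62.5, 71.7, 83.5 and 67.5 in members and 152, 158, 161 and 193 in Gpnmb-low macrophages (log2 -1.20 ± 0.22, adjusted p 5.28e-04, lower in 4 of 4), and its list of selectin partners gave 0 higher and 3 lower of 5 tested, median log2 -0.97.

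Genes of disease-associated microglia, many of them lipid or lysosomal genes as well, gave 7 higher and 1 lower of 14 tested, median log2 1.12. Complement with resident-macrophage genes gave 5 higher and 4 lower of 18 tested, median log2 0.21. Heme and iron handling gave 3 higher and 0 lower of 10 tested, median log2 0.38, and NRF2 targets, the redox genes, gave 0 higher and 1 lower of 11 tested, median log2 -0.20. Glycolysis and hypoxia gave 1 higher and 4 lower of 21 tested, median log2 0.04, and a sample of genes of oxidative phosphorylation gave 1 higher and 0 lower of 17 tested, median log2 0.03. Matrix genes and proteases gave 1 higher and 2 lower of 17 tested, median log2 -0.15. Genes that respond to tissue dissociation and heat gave 1 higher and 2 lower of 14 tested, median log2 -0.12.

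**Figure D1:**
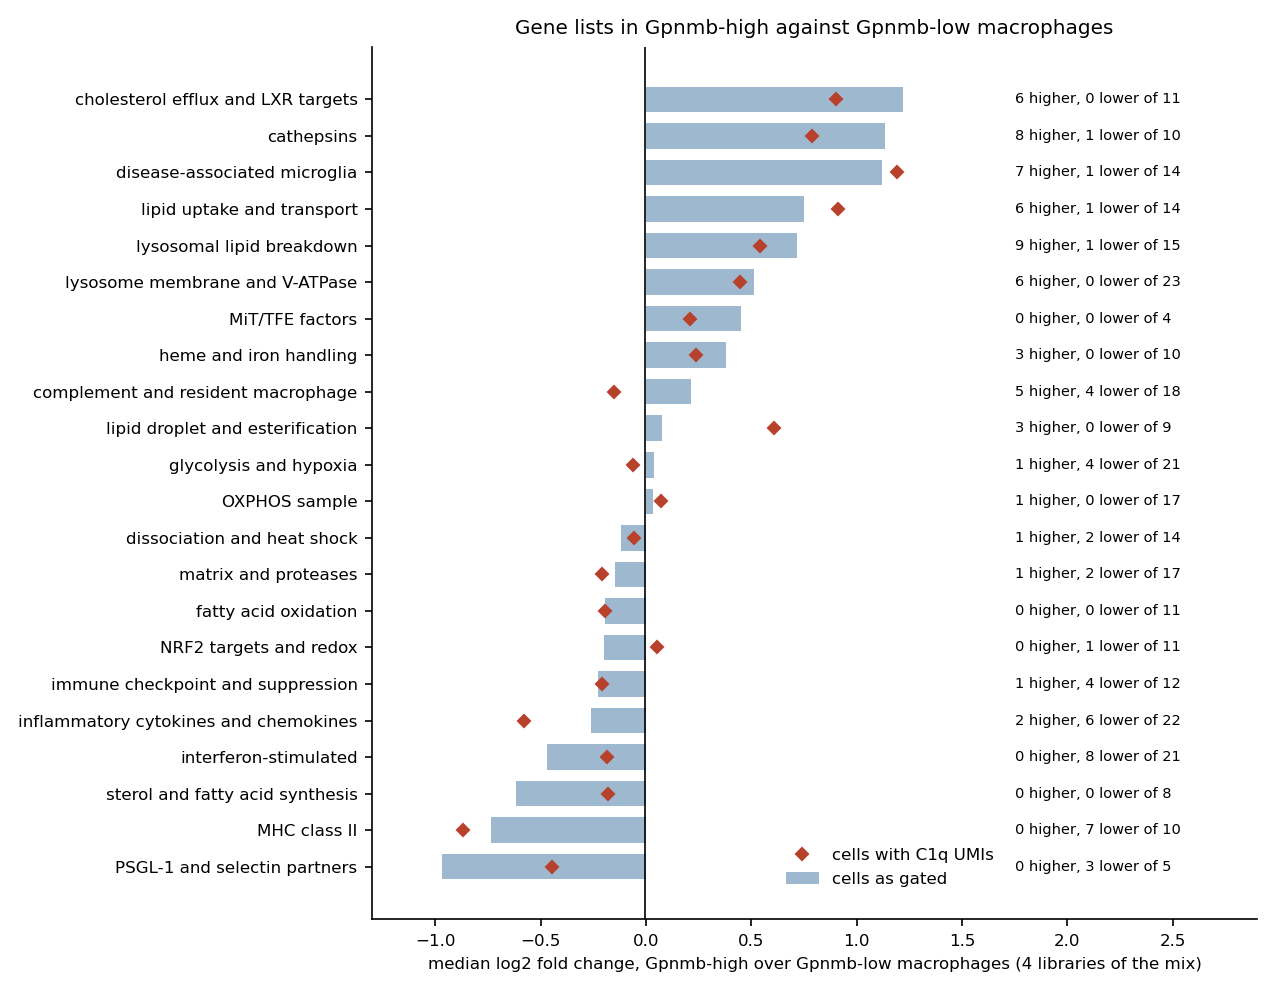
Bars give, for each of 22 gene lists, the median log2 difference of Gpnmb-high over Gpnmb-low macrophages in the 4 mix libraries, red diamonds the same among cells with at least 5 C1q UMIs, and the black line the median of all genes, -0.01; numbers at the right count genes called higher, called lower and tested. Cathepsins stood at 1.14, cholesterol efflux at 1.22 and MHC class II at -0.74.

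Gpnmb-low macrophages include monocyte-like cells, so the comparison was repeated, after seeing the data, among mature macrophages with at least 5 UMIs of the complement genes C1qa, C1qb and C1qc. It called 327 of 4997 genes, 139 higher and 188 lower, and shared 126 and 170 of them with the full comparison. Cathepsins gave 7 higher and 1 lower of 10 (median 0.79, against 1.14 before), while lysosomal lipid breakdown went from 9 higher of 15 (median 0.72) to 3 of 14 (median 0.54). The lysosomal lists together went from 23 higher of 48 (median 0.66) to 15 higher and 1 lower of 44 (median 0.53), and MHC class II gave 0 higher and 6 lower of 9 (median -0.87). Ctsd stood at log2 2.66 and Syngr1 at 3.34 in this setting. Interferon-stimulated genes gave 0 higher and 1 lower of 21 (median -0.18), against 0 higher and 16 lower over all 6 libraries (median -0.58) and CD11b+ medians of -0.78 and -0.65. Complement with resident-macrophage genes turned to 0 higher and 3 lower of 18 (median -0.15) among cells with C1q UMIs. These cells were kept by UMIs of complement genes, so part of that change may be built in. Selplg was not called among them (log2 -0.62, adjusted p 0.180). Over all 6 libraries 1152 of 7162 genes were called, 480 higher and 672 lower, and they held 266 of the 284 and 400 of the 425. In the CD11b+ table, 240 of 283 genes called higher in the mix (84.8%) were higher in both libraries, against 35.6% of all 3142 tested genes above 0 in the mix, and 392 of 423 called lower (92.7%) were lower in both, against 57.6% of all 3218 below 0.

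**Figure D2:**
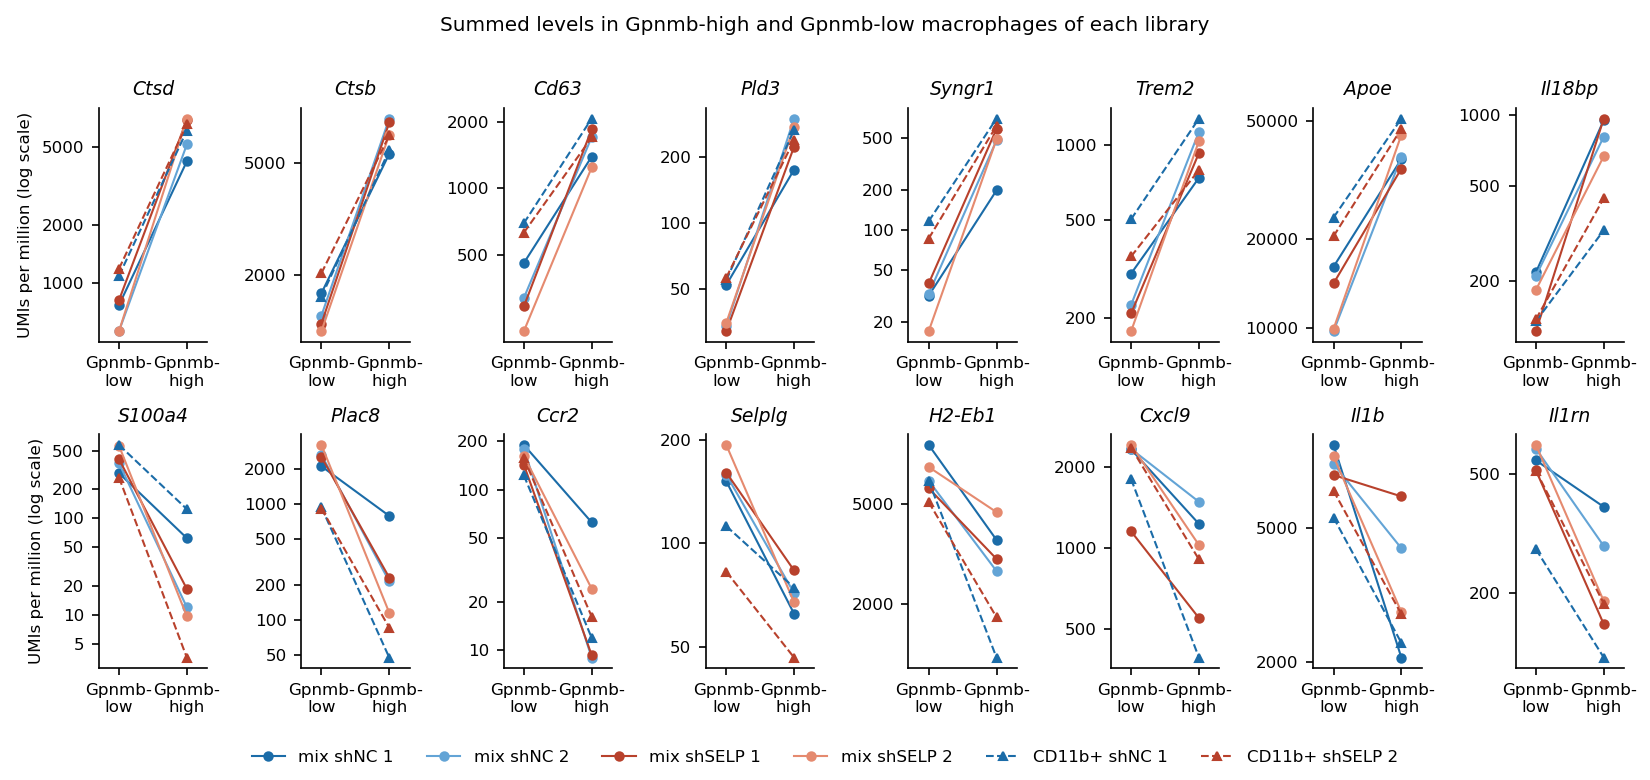
Levels in CPM (log axis) of 16 genes in Gpnmb-low and Gpnmb-high macrophages, with 1 line per library: 4 mix libraries and, as dashed triangles, 2 CD11b+ libraries. Ctsd rose in every library, from 567 to 819 in Gpnmb-low cells of the mix to 4235 to 7029, and Ccr2 was lower in members of every library.

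A macrophage that loads lipid over days would pass through intermediate levels of Gpnmb, so the question was whether other genes climb with it inside the class as well as across its threshold. Macrophages were therefore grouped by Gpnmb per 10,000, from 0 UMIs through below 10, 10 to 20 and 20 to 40 to 40 or more, with 590, 130, 31, 29 and 12 cells in the mix. The grouping uses Gpnmb itself and is description only, and the last group holds 12 cells. Fabp5 ran through 189, 688, 5688, 5277 and 8210.0, Ctsd through 530.5, 1244, 5084, 6435 and 6622 and Trem2 through 209, 349, 869.8, 1005 and 1470.0 CPM. Apoe climbed from 11008 to 39606 in the first group of members and stayed near it, at 39994 and 37206. Ccr2 went down through 183, 133, 33.1, 11.5 and 0 and Cd74, the chaperone of class II molecules, through 14484, 13154, 12289, 8728 and 7519. Selplg went down with them, through 170.5, 139, 90.3, 61.1 and 44.1. In the CD11b+ table the same groups held 1605, 271, 110, 77 and 35 cells, with Ctsd at 841, 2545, 4797, 6611 and 10963 and Cd74 at 8581, 6322, 3794, 3455 and 2107. Selplg went 102, 84.2, 55.7 and 49.2 there and was at 78.6 in the last group. The pooled climb inside the class did not hold in every library: 9 of the 12 cells at 40 or more were from shNC 2 and none from shNC 1, and Ctsd over the 3 groups of members was 8327, 3235 and 4908 in shSELP 1 and 5239, 9748 and 6387 in shSELP 2. Cells outside the rule with some Gpnmb RNA lay between the extremes for each of these genes in the mix.

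**Figure D3:**
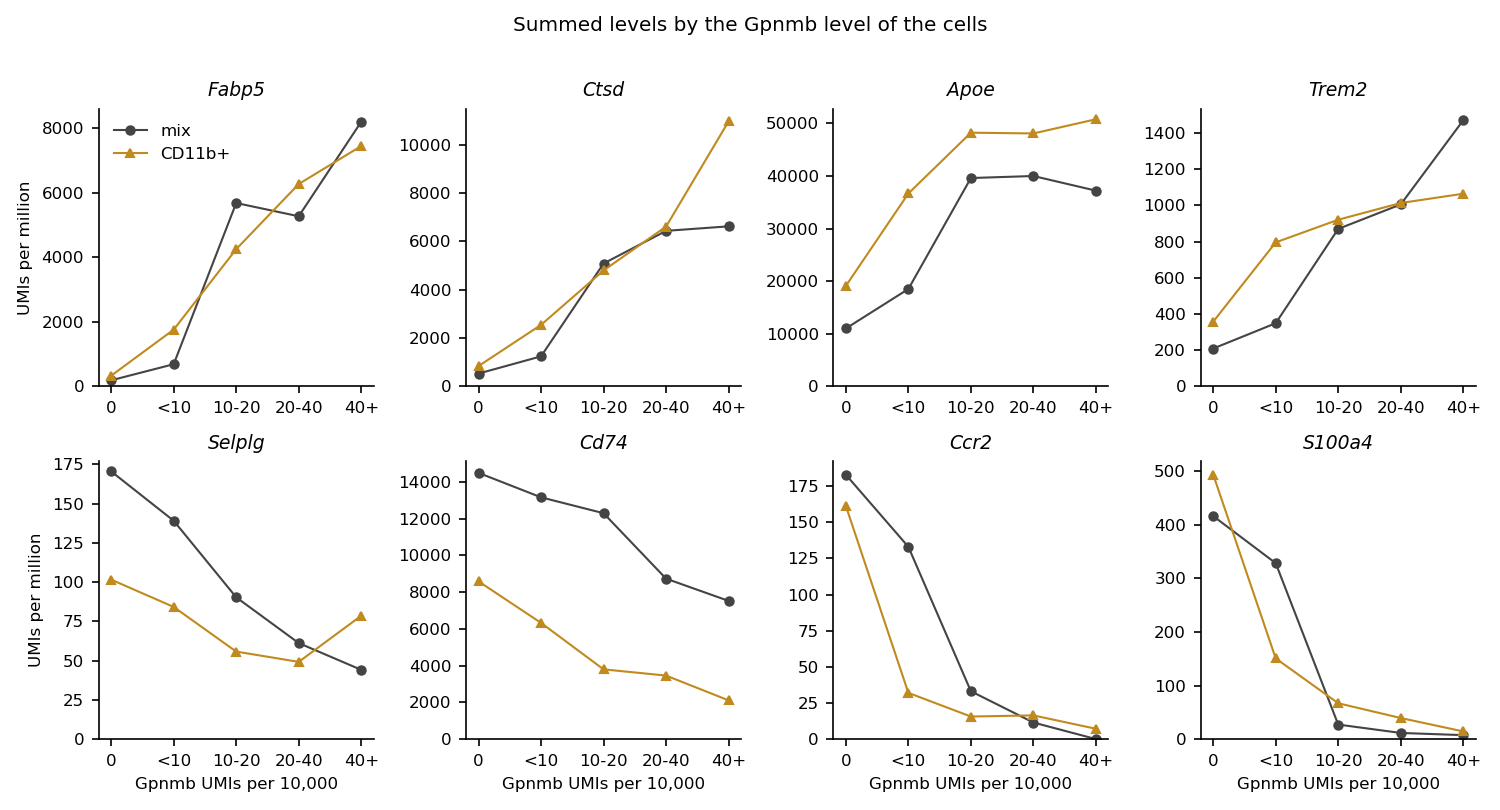
Levels in CPM of 8 genes by Gpnmb per 10,000 (0, below 10, 10 to 20, 20 to 40, 40 or more) for macrophages of the mix and of the CD11b+ table; points are groups of cells. Ctsd went from 530.5 to 6622 in the mix, and Ccr2 from 183 to 0.

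What happens to myeloid cells when tumor cells lose P-selectin was asked first of the number of Gpnmb-high macrophages. A loss of adhesion signals could change how many macrophages enter the tumor, or how far they go toward the lipid-loaded state. Members made up 4.80% (2.42 to 8.43; 11 of 229), 13.7% (9.65 to 18.6; 34 of 249), 7.01% (3.55 to 12.2; 11 of 157) and 10.2% (5.94 to 16.0; 16 of 157) of macrophages that met the other conditions, with exact Clopper-Pearson 95% limits that cover counting error only. The means were 9.23 ± 6.26% (SD, n = 2) for shNC and 8.60 ± 2.25% (n = 2) for shSELP, a difference of -0.63 percentage points with p 1 in a two-sided exact permutation test, whose smallest possible p is 0.333. Both shSELP libraries lay between the shNC libraries, and with 1 library left out the difference ran from -5.06 points (without shNC 1) to 3.80 (without shNC 2). In the CD11b+ libraries the share was 7.23% (5.71 to 9.002; 73 of 1010) and 13.7% (11.7 to 15.9; 149 of 1088), 1 library per group. With Gpnmb at 20 per 10,000 the shares of the mix were 1.747, 10.0, 3.18 and 4.46%, and at 5 per 10,000 they were 7.86, 17.3, 8.28 and 10.8%.

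The next question was whether the members themselves differed between shSELP and shNC tumors. P-selectin on a tumor cell could signal through PSGL-1 on a macrophage and change its cytokines or its handling of lipids. With 11, 34, 11 and 16 members the sums are shallow, and single deep cells weigh heavily: the deepest member held 23.0, 8.92, 18.5 and 13.2% of its library's UMIs. edgeR with Benjamini-Hochberg adjustment called 2 of 2079 genes (0.0962%), both higher in shSELP, with 112 at unadjusted p below 0.05, and DESeq2 called 3. Apoc1 rose (log2 3.11 ± 0.43, SE; adjusted p 0.0362), with 37.5, 26.9, 185 and 294 CPM, and both shSELP libraries were above both shNC libraries. Its UMIs were 3, 9, 20 and 61, and 1 cell held 18 of the 20 and 1 cell all 61, so that without the cell with most Apoc1 the levels were 28.8, 21.5, 22.5 and 0. Ccl5, a chemokine for T cells and monocytes (chr11:83525778-83530518), rose with 537, 771, 3412 and 2005 (log2 2.07 ± 0.32, adjusted p 0.0496), in both shSELP libraries. Without the cell with most Ccl5 it was at 471, 645, 2306 and 1305, still without overlap of the groups. CD11b+ members had Ccl5 at 405 and 954, a ratio of 2.36 (1.95 to 2.87), and Gpnmb-low macrophages 1.84 (1.76 to 1.93). When 7 cells with most Apoc1 or Saa3 UMIs were left out of the mix, 0 of 1838 genes were called by edgeR, with 63 at unadjusted p below 0.05, and Ccl5 was weaker (log2 1.78, adjusted p 0.999). Neither gene passed in every other setting. With the replicate number as a block Apoc1 had log2 3.21 (adjusted p 0.267) and Ccl5 2.03 (adjusted p 0.938), so both calls were lost at similar folds. With members chosen at Gpnmb of 5 per 10,000 Apoc1 had 1.95 (adjusted p 0.332) and Ccl5 0.18 (adjusted p 0.994). Ccl5 also lost its call at Gpnmb of 20 per 10,000 (log2 2.33, adjusted p 0.157) and after thinning to 2000 UMIs (1.88, adjusted p 0.975). Without shSELP 2, which leaves 1 shSELP library, Apoc1 had log2 2.63.

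Timp2 did not pass in edgeR (log2 1.62 ± 0.26, adjusted p 0.0554), at 349.8, 442, 1215 and 1167. It passed in DESeq2 (log2 1.62, adjusted p 0.00885) and in edgeR without a filter on low counts (log2 1.57, adjusted p 0.00205). In shSELP 1, 87 of 131 UMIs were in 1 cell, and without the top cell of each library the levels were 279, 417, 495 and 805. The class II gene H2-Oa (log2 2.82 ± 0.66, adjusted p 0.451) rested on 2, 4, 10 and 23 UMIs, of which 9 and 17 in the shSELP libraries were in the same cells as most Apoc1, and without the top cell of each library the levels were 14.4, 9.19, 11.3 and 33.3. Ttr, which encodes a thyroid hormone carrier of the choroid plexus, had 3, 17, 3308 and 14 UMIs (log2 8.38 ± 1.96, adjusted p 0.451), of which 3142 were in 1 cell of shSELP 1, and 100% of T cells of that library had a Ttr UMI. Lower in shSELP, without passing, were Hilpda (612, 406, 55.6 and 183; log2 -1.86 ± 0.45), a hypoxia gene, and Bhlhe40 (187, 215, 92.7 and 57.9; log2 -1.45 ± 0.36), a transcription factor. The interferon genes Phf11b (212, 152, 64.9 and 57.9; log2 -1.43 ± 0.37) and Serpina3g (175, 191, 74.2 and 72.3; log2 -1.27 ± 0.34), a protease inhibitor, were below their shNC levels in both shSELP libraries. Saa3, an acute-phase apolipoprotein (chr7:46711998-46715700), had 46, 28, 4 and 1 UMIs (log2 -3.91 ± 1.08), and all 46 of shNC 1 were in 1 cell. In the CD11b+ table the ratio of shSELP to shNC was 3.17 (1.93 to 5.48) for Saa3, 2.65 (1.31 to 5.91) for Serpina3g, 0.751 (0.633 to 0.891) for Timp2 and 0.417 (0.215 to 0.790) for Apoc1, each on the other side of 1 from the mix. For Apoc1, 18 of the 26 UMIs of CD11b+ shNC members were in 1 cell, and without the top cell of each library the levels were 24.3 and 25.4. Trem2 had a ratio of 0.620 (0.542 to 0.710) in members and 0.708 (0.657 to 0.763) in Gpnmb-low macrophages of the CD11b+ libraries.

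**Figure D4:**
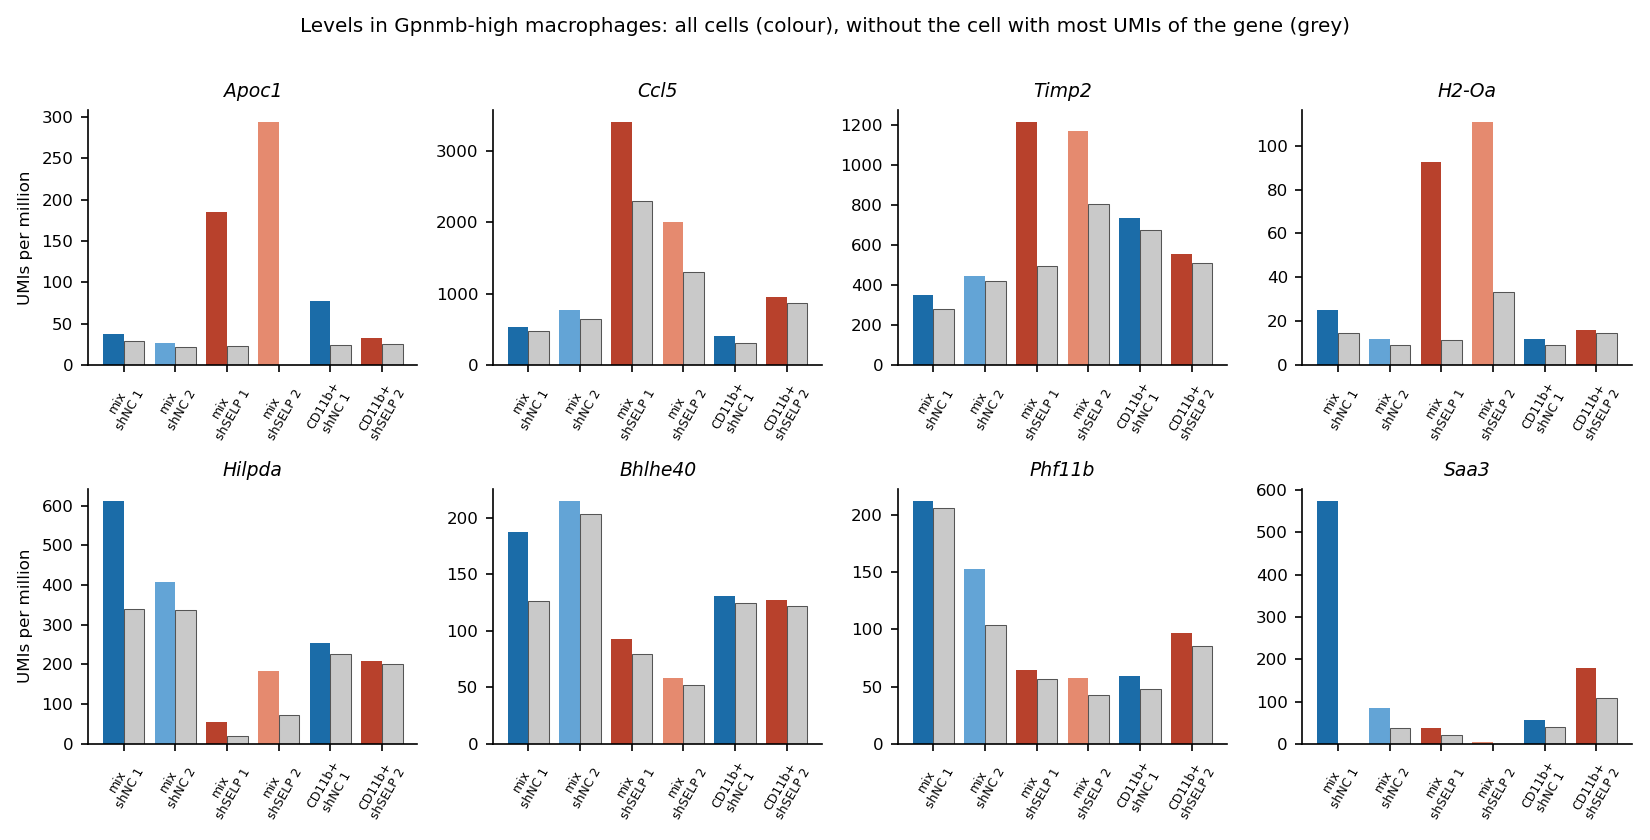
Levels in CPM of 8 genes in Gpnmb-high macrophages of each library; coloured bars include all members and grey bars leave out the 1 cell with most UMIs of the gene, and bars start at 0. For Apoc1 the bars of shSELP 1 and shSELP 2 go from 185 and 294 to 22.5 and 0, while for Ccl5 both stay above shNC.

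As lists the response was small, against 1051 of 2079 genes above 0 and a median of 0.00 over all genes. Interferon-stimulated genes had 3 of 19 above 0, median -0.33, MHC class II genes 6 of 7 above 0, median 0.42, and heme and iron genes 7 of 7 above 0, median 0.15. Disease-associated microglia genes had 8 of 9 above 0, median 0.15, the lysosomal lists 23 of 38 above 0, median 0.09, and droplet genes 0 of 4 above 0, median -0.58. Only Apoc1 in the efflux list (7 tested, median -0.01) and Ccl5 in the cytokine list (18 tested, median 0.10) were called, both higher, and none of the listed genes was called lower. No gene of the sterol synthesis and MiT/TFE lists had enough UMIs to be tested.

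Whether shSELP acted on Gpnmb-high macrophages differently from Gpnmb-low ones is a question about the difference between the responses, and it uses the same libraries for both. A signal confined to lipid-loaded cells would move a gene in them and leave it level in the rest. edgeR called 2 of 6364 genes (0.0314%), with 258 at unadjusted p below 0.05, and DESeq2 called 2. Saa3 had a log2 difference in response of -5.09 ± 0.69 (adjusted p 0.00675), with members at 575, 83.7, 37.1 and 4.82 and Gpnmb-low macrophages at 115, 9.31, 62.2 and 122. Apoc1 had 3.79 ± 0.59 (adjusted p 0.0233), with Gpnmb-low macrophages at 19.2, 15.9, 8.29 and 11.7. For Apoc1 members of both shSELP libraries were above both shNC libraries and Gpnmb-low macrophages below them, while for Saa3 members were below and Gpnmb-low macrophages overlapped. Without the 7 cells with most Apoc1 or Saa3 UMIs, Saa3 was at -4.84 (adjusted p 0.0833), and Apoc1 was no longer measurable, with 0 UMIs in members of shSELP 2. A fall was built into this setting, since the cells were left out by these UMIs. Without shSELP 1, which leaves 1 shSELP library, the values were 3.93 for Apoc1 and -7.05 for Saa3, and no call is read from that fit. Cd72 (2.94 ± 0.67), a coreceptor of B cells and macrophages, Ahnak (-1.81 ± 0.42), a scaffold protein, and S100a8 (-5.80 ± 1.37), a neutrophil calgranulin, did not pass. Gpnmb-low macrophages by themselves gave 10 of 7746 genes (0.129%), all higher in shSELP.

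By lists, with 3217 of 6364 genes above 0 over all genes and a median of 0.01, differences in response above 0 numbered 9 of 10, median 0.55 for MHC class II, 13 of 14, median 0.37 for disease-associated microglia and 35 of 48, median 0.20 for the lysosomal lists. For interferon-stimulated genes they were 5 of 21, median -0.34. MiT/TFE factors had 4 of 4, median 1.45, on 0 to 10 UMIs per gene and library in members. Of the other lists, complement with resident-macrophage genes had 11 of 18, median 0.43, and fatty acid oxidation 8 of 11, median 0.40. Checkpoint genes had 4 of 12, median -0.43, droplet genes 2 of 9, median -0.39, and selectin partners 0 of 5, median -0.32. Medians of the remaining lists ran from -0.18 to 0.37. In members by themselves 2079 genes passed the filter, against 6364 in this fit, so many of these values rest on few UMIs of members.

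The lysosomal genes were last read for the sequence TCACGTGA, the palindrome that MiT/TFE factors bind, in promoters of 300 bases. These factors turn on lysosomal genes when lysosomes are stressed or overloaded, and whether they acted in these cells was not tested. Matches were counted on both strands and are description only. The site was in 7 of 41 promoters of the lysosomal lists (17.1%) and in 304 of 27025 promoters of the genome (1.12%). Of genes called higher in members 10 of 228 had it (4.39%), of genes called lower 2 of 321 (0.623%), and of all tested 151 of 5075 (2.98%). The shorter core CACGTG was in 12 of 41 lysosomal promoters (29.3%), against 16.7% of genes called higher, 13.3% of genes tested and 8.09% of all. The antioxidant element TGACNNNGC was in 8 of 13 promoters of NRF2 targets (61.5%), against 17.9% of genes tested and 14.0% of all. Promoters of Ctsd (chr7:142387778-142388077, minus strand), Ctsa (chr2:164833523-164833822, plus strand) and Gla (chrX:134600956-134601255, minus strand) follow, from RefSeq on GRCm38.p6, with capitals marking TCACGTGA. They are the 3 of the 7 whose genes were called higher, while Mcoln1 (adjusted p 0.253), Atp6v0d1 (0.121), Atp6v0e (0.0773) and Atp6v1a (0.136), a lysosomal channel and pump subunits with log2 differences of 1.14, 0.52, 0.46 and 0.55, were not called. Of all 48 genes tested in the lysosomal lists, with or without the site, 23 were called higher. The Gpnmb promoter (chr6:49036268-49036567, plus strand) had no match.
Ctsd: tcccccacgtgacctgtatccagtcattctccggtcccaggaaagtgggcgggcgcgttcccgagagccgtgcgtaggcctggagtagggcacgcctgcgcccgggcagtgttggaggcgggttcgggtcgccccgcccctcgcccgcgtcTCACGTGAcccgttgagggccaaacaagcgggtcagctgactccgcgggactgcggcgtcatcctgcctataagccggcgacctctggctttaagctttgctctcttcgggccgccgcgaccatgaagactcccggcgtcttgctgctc
Ctsa: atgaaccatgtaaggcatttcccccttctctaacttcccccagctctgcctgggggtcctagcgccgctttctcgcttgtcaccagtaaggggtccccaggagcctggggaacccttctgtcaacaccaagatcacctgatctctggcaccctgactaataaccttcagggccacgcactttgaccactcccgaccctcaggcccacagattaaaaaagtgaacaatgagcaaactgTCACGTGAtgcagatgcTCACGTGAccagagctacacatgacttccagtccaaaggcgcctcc
Gla: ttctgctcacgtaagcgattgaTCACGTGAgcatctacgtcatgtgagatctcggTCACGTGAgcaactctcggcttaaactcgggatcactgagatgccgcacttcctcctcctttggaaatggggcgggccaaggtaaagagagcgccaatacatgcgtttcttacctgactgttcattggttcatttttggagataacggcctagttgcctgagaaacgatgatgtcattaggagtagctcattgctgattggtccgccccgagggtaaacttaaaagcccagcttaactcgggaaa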

How the data were processed

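The values are UMI counts per gene and cell, deposited as a table for the mix (20300 genes, 9172 cells, 88559856 UMIs) and a table for CD11b+ cells (14363 genes, 5724 cells, 24073853 UMIs). Per the submitters' processing notes the authors made these counts with Cell Ranger 1.3 on mm10. The 48 sequencing entries are runs of 6 libraries, 4 of the mix and 2 of CD11b+ cells, and each cell was assigned to its library from the table's column name. The tables were analysed separately. Cells with at least 500 genes (8726 and 5535) were kept, and the rule given in the results was applied to raw counts. No cell passed 5.00% mitochondrial UMIs, so a limit of 10% left out none.

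UMIs of each class were summed per library, since cells of a library are not replicates. Sums were tested with the quasi-likelihood F test of edgeR 4.0.16 in R 4.3.3, after its filterByExpr filter and TMM scaling, with p adjusted by Benjamini-Hochberg over all genes tested and a limit of 0.05, with the library as a block wherever a library gave more than 1 class. The comparisons were shSELP against shNC in members, members against Gpnmb-low macrophages, and the interaction of class and knockdown. A comparison with Cst7-high cells was planned only if each library held at least 10 of them and, with 3, 7, 1 and 2, was not run. A further condition of the rule, on 1 gene, and the planned comparison built on it are not reported here. Shares were compared with an exact two-sided permutation test over libraries, with Clopper-Pearson intervals. CD11b+ libraries, 1 per group, got ratios with exact 95% limits for counting error, without a pseudocount, and no test of shSELP. For the list medians and directions of CD11b+ libraries, log2 ratios of members to Gpnmb-low macrophages had a pseudocount of 1 CPM. The 13 genes of the rule and Fabp5, Spp1 and Lgals3 were left out of all counts of called genes. Medians over a list use every tested gene of it.

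The rule, the comparisons, 22 gene lists and 13 marker lists were chosen with earlier results of these data known. Named against Gpnmb-low macrophages are, upward and downward, the 10 called genes with the largest differences that averaged 50 CPM or more and moved alike in all libraries; upward Fabp5 and Spp1 fill 2 of these places and are given as description. For shSELP against shNC they are the called genes and the 5 smallest p in each direction, and for the interaction the 5 smallest p. Genes of the lists are named besides.

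Alternatives were DESeq2 1.42.0, genes kept whatever their counts, libraries left out in turn, Scrublet calls left out (expected rate 0.05, scanpy 1.11.5), cells thinned to 2000 UMIs, Gpnmb at 5 or 20 per 10,000, and the replicate number as a block. Others were chosen after seeing the data: all 6 libraries in the fit, cells with at least 5 C1q UMIs, and leaving out the members with most Apoc1 or Saa3 UMIs. The methods were also tested on simulated counts with log2 changes of 2 up or down. For shSELP against shNC in members 144 of 179 changed genes were recovered, and for members against Gpnmb-low macrophages 164 of 188. The interaction test recovered only 61 of 185, so a low count of calls there does not show that responses were alike. Promoters are 300 bases from RefSeq on GRCm38.p6 and gene positions come from GENCODE. Python 3.11.15, numpy 2.4.6, scipy 1.17.1, pandas 2.3.3 and matplotlib 3.10.9 were used.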

Additional observations from a re-analysis of the deposited data

Results flagged for a closer look

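Among Gpnmb-high macrophages of the mix, the effect of shSELP on Apoc1 differed from that in Gpnmb-low macrophages by log2 3.79, and that on Saa3 by -5.09. The members' UMIs of both genes lay mostly in single cells: 18 of 20 and all 61 Apoc1 UMIs of the shSELP libraries, and all 46 Saa3 UMIs of shNC 1. The 2 cells with most Apoc1 held 18954 and 27307 UMIs, more than the median member, and also had the most Timp2 (87 and 97) and Ccl5 (163 and 181) of their libraries. They held 12 of 14 and 15 of 24 of the members' Cst7 UMIs there. Their Scrublet scores were 0.0521 and 0.153, and Scrublet called neither a doublet. They had 1 and 16 UMIs of Cx3cr1, the fractalkine receptor gene. The cause was not tested.

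In the CD11b+ table, with 1 library per group, 5 genes went the other way from the mix in members, and none of these differences was tested. From shNC to shSELP the log2 ratio was -1.26 for Apoc1, -0.41 for Timp2, 0.70 for Phf11b, 1.41 for Serpina3g and 1.66 for Saa3. For Apoc1 18 of the 26 UMIs of the shNC library were in 1 cell, and without the top cell of each library the levels were 24.3 and 25.4 CPM, so that the Apoc1 ratio rested on that cell. The tables differ in sorting, depth and, by the labels, day after implantation, and these cannot be told apart from each other.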

How the results depend on the processing

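The difference in share, -0.63 percentage points, ran from -5.06 without shNC 1 to 3.80 without shNC 2, and was 0.962 without shSELP 1, so its sign rested on single libraries.

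For shSELP against shNC in members, 2 genes were called. The count was 33 without a filter on low counts, 23 to 39 with 1 library left out, and 0 after thinning to 2000 UMIs, 0 with Gpnmb at 5 per 10,000, 0 at 20, and 0 without the members with most Apoc1 and Saa3 UMIs. With the replicate number as a block (replicate block) the count was 0, with 91 at unadjusted p below 0.05. The folds stayed about as large there, at log2 3.21 for Apoc1 and 2.03 for Ccl5. The correlation of the deviations of libraries with the same number was 0.0569. Of 113 values for single genes 85 held, 8 were weaker and 20 stronger.

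Against Gpnmb-low macrophages 709 were called. DESeq2 called 433, thinning left 259, Gpnmb at 20 per 10,000 gave 436, and leaving out 1 library 416 to 735. Over all 6 libraries there were 1152 and among cells with C1q UMIs 327. Of 299 values for single genes 297 held, and of 136 list medians 92 held and 44 moved. Apoc1 was at -0.0337 ± 0.65 without the cells with most Apoc1 and Saa3, a fall built in by leaving cells out by these UMIs.

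For the difference in response 2 were called, 12 without a filter and 0 to 25 with 1 library left out. Without the cells with most Apoc1 and Saa3 the fitted Apoc1 value was -6.71 ± 3.34 (adjusted p 1), over members of shSELP 2 with 0 Apoc1 UMIs, so it is no measured reversal. The cause of these changes was not tested. The comparison with Cst7-high cells was not run, by the limit on cells set beforehand.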

Other observations

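Cysteine taken up with cell debris or cystine is used for glutathione or oxidised to taurine. A gene that stays near zero in most macrophages and appears in a small fraction is hard to test in shallow sums, since 1 library can hold most of its UMIs.

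Cdo1, which encodes the cysteine dioxygenase that makes taurine, was chosen here after its values were seen, since it lies outside the naming rule. It had 1, 68, 3 and 2 UMIs in Gpnmb-high macrophages of the mix, so 1 library of the mix held nearly all of it there, and 25 UMIs in 12 cells and 61 UMIs in 34 cells of the CD11b+ libraries. Its log2 difference from Gpnmb-low macrophages was 6.28.

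The stress cytokine Gdf15 differed between the CD11b+ libraries, with a ratio of shSELP to shNC of 0.279 (0.185 to 0.415, exact 95% limits for counting error) in members and 0.356 in Gpnmb-low macrophages. No test was run, since each group has 1 library. In members of the mix Gdf15 was at 537, 111, 27.8 and 72.3 CPM, and 41 of the 43 UMIs of shNC 1 were in 1 cell.

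Among cells with C1q UMIs S100a8, a neutrophil calgranulin, had the opposite sign from the full comparison with Gpnmb-low macrophages, at 2.65 against -2.58 on the log2 scale. The full set of Gpnmb-low macrophages held neutrophil markers, most of all in shSELP 1.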
